A study of Mus musculus with 2 samples.

Results

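The pentose phosphate pathway was described through 9 genes of the 27998 listed in both libraries, chosen by name: G6pdx, Pgls and Pgd of the oxidative branch, Rpia, Rpe, Tkt and Taldo1 of the non-oxidative branch, and Prps1 and Prps2, which use its product. All 9 symbols matched 1 entry each. The libraries came from CD8+ T cells of OT-I mice aged 8 to 12 weeks, whose transgenic T cell receptor recognises an ovalbumin peptide. Cells of spleen and lymph node shared a 48 h activation in culture with that peptide, SIINFEKL, and 100 U/ml of interleukin-2. The control library was then held for 20 h at 11 mM glucose and the library called TGR (transient glucose restriction) for 20 h at 1 mM glucose. Another label field speaks of 3 days of growth before the exposure. The labels give 1 library for each condition and neither the number of mice behind it nor whether glucose was restored before capture.

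The oxidative branch turns glucose 6-phosphate into ribulose 5-phosphate and yields NADPH, the reductant of lipid synthesis and of glutathione recycling. The non-oxidative branch interconverts sugar phosphates reversibly, so that ribose 5-phosphate for nucleotides can be made from, or returned to, the intermediates of glycolysis. PRPP synthetases then activate ribose 5-phosphate to phosphoribosyl pyrophosphate (PRPP), the ribose donor of purine, pyrimidine and NAD synthesis. Activated T cells, which copy their genomes and build membranes within days, are known for a high demand on both products of the pathway.

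Cells with at least 500 genes and under 10% of UMIs (unique molecular identifiers, each standing for a captured transcript) on mitochondrial genes were kept. This left 3127 of 3336 control and 2546 of 2548 TGR barcodes, with 14730128 and 19696068 UMIs and medians of 4030 and 6265.5 UMIs per cell. Only 9 barcodes were shared by the kept cells of both libraries. The T cell label was met: 0 of 7 measured CD8 T cell markers were at 0 in either library, with a summed level of 2992 CPM (UMIs per 1000000) in control and 2341 CPM in TGR. Markers of B, CD4 T, NK, dendritic, erythroid and myeloid cells summed to between 0 and 19.1 CPM per list. B cell markers were the highest of these (19.1 CPM in control, 12.7 CPM in TGR), nearly all from Cd79b, and their part in the results was not tested. Ribosomal protein and mitochondrial genes took 42.7% of UMIs in control and 52.1% in TGR, which lowers the CPM of every other gene in the TGR library. The median log2 ratio of TGR over control over the 6667 genes that reached 10 CPM in at least 1 library was -0.16, and ratios are best read against it. Levels are not compared between genes, since UMIs were counted from transcript ends that are captured unequally and carry no length scaling.

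As a whole the pathway was lower in the TGR library. The 9 genes together had 11390 UMIs (773 CPM, counting interval 759 to 788) in control and 11286 UMIs (573 CPM, 562 to 584) in TGR, a level 1.35-fold lower (interval 1.32 to 1.38). The oxidative branch stood at 372 CPM (362 to 382) in control and 261 CPM (254 to 269) in TGR, 1.42-fold lower (1.37 to 1.48). The non-oxidative branch stood at 330 CPM (321 to 339) and 265 CPM (258 to 272), 1.24-fold lower (1.20 to 1.29). The 2 PRPP synthetases stood at 71.9 CPM (67.6 to 76.4) and 46.6 CPM (43.6 to 49.7), 1.54-fold lower (1.41 to 1.69). With totals that leave out ribosomal protein and mitochondrial genes, every log2 ratio rises by 0.26, and those of the branches became -0.25, -0.06 and -0.37. Since this shift is the same for all genes, it cannot change the order of the branches. The median over the 8370 genes tested on that scale, a larger set than on total UMIs, was 0.17, and each branch lay below it. The interval of the non-oxidative sum on that scale includes equality (-0.11 to 0.00069). All intervals here are at 95% and describe counting error alone. No difference has a replicate check, and no p-value is given.

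**Figure D1:**
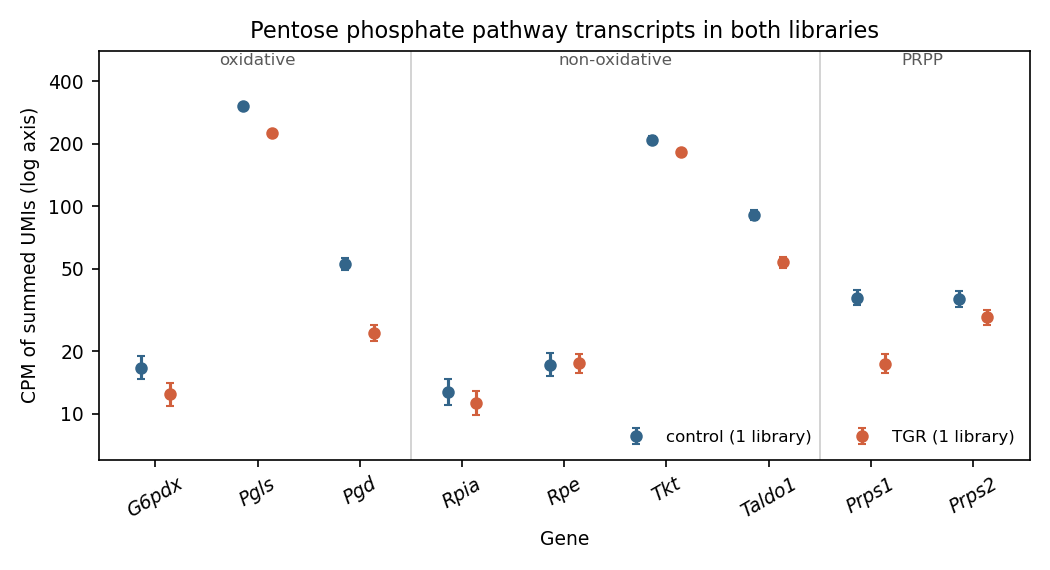
Level of each enzyme gene in CPM of summed UMIs (log axis) in the control library and the TGR library, with exact Poisson 95% intervals; there is 1 library per condition. Pgd, Taldo1 and Prps1 show the widest gaps between libraries, while Rpe stands at 17.2 and 17.5 CPM.

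The genes within each branch differed to unequal degrees. A gene was counted as lower or higher at 1.5-fold with an interval that left out a ratio of 1. By this rule 3 of 9 were lower (Pgd, Taldo1 and Prps1, 1 from each group) and 0 were higher, against 21.8% lower and 9.33% higher among all genes tested. Set against that background, 3 of 9 does not mark the pathway as a whole. The median log2 ratio of the 9 was -0.42, and 8 of the 9 lay below the median of all genes. With ribosomal protein and mitochondrial genes out of the totals, 2 of 9 were lower (Taldo1, at -0.50, drops out) and 0 higher. On that scale 10.2% of all genes were lower and 22.8% higher, so that higher genes made up 69.2% of those called in place of 29.9%. The set of genes tested also differed, at 8370 in place of 6667, since more genes reached 10 CPM with smaller totals.

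G6pdx encodes glucose-6-phosphate dehydrogenase, which commits glucose 6-phosphate to the pathway and makes its first NADPH. The gene (ENSMUSG00000031400) spans 74409483 to 74429194 of chromosome X, minus strand (GRCm38). It had 245 UMIs in each library, 16.6 CPM (14.6 to 18.9) in control and 12.4 CPM (10.9 to 14.1) in TGR, and was 1.34-fold lower (1.12 to 1.60). On the log2 scale this ratio of -0.42 became -0.70 (-1.29 to -0.15) after each cell was thinned to 1500 UMIs, and -0.16 (-0.42 to 0.10) without ribosomal protein and mitochondrial genes in the totals. The gene overlaps Ikbkg on the opposite strand, so reads of the shared stretch are told apart by strand alone. The intronless copy G6pd2 had 0 UMIs in either library.

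Pgls encodes 6-phosphogluconolactonase, the second step, and lies on chromosome 8 from 71592176 to 71601092 (ENSMUSG00000031807). It had 4453 UMIs (302 CPM, 293 to 311) in control and 4419 UMIs (224 CPM, 218 to 231) in TGR, 1.35-fold lower (1.29 to 1.40). On the log2 scale this ratio of -0.43 became -0.17 (-0.23 to -0.11) without ribosomal protein and mitochondrial genes in the totals. The gene overlaps Fam129c on the same strand, so strand cannot separate reads of the shared stretch. With 81.4% and 85.8% of the branch's UMIs, Pgls sets the oxidative sum, so that sum says little about the dehydrogenases.

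Pgd encodes 6-phosphogluconate dehydrogenase, which makes the second NADPH and ribulose 5-phosphate. It spans 149149991 to 149166771 of chromosome 4, minus strand (ENSMUSG00000028961). It had 775 UMIs (52.6 CPM, 49.0 to 56.4) in control and 484 UMIs (24.6 CPM, 22.4 to 26.9) in TGR. It was 2.14-fold lower, a log2 ratio of -1.10 (-1.27 to -0.93). Without ribosomal protein and mitochondrial genes in the totals the ratio was -0.84 (-1.01 to -0.67). Among the 9 genes only Prps1 came near this difference. The gene's share of oxidative UMIs went from 14.2% (13.2 to 15.1) to 9.40% (8.62 to 10.2).

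In the non-oxidative branch the isomerase and epimerase genes lay close together in the 2 libraries. Rpia, ribose-5-phosphate isomerase (chromosome 6, 70765720 to 70792232, ENSMUSG00000053604), had 188 UMIs (12.8 CPM, 11.0 to 14.7) in control and 222 UMIs (11.3 CPM, 9.84 to 12.9) in TGR, a log2 ratio of -0.18 (-0.47 to 0.11). Rpe, ribulose-5-phosphate epimerase (chromosome 1, 66700831 to 66719805, ENSMUSG00000026005), had 254 UMIs (17.2 CPM, 15.2 to 19.5) and 344 UMIs (17.5 CPM, 15.7 to 19.4), a log2 ratio of 0.02 (-0.22 to 0.26). Rpe overlaps Kansl1l on the opposite strand. For both genes the interval includes a ratio of 1 and leaves out a 1.5-fold difference in either direction. Without ribosomal protein and mitochondrial genes in the totals the ratio of Rpe was 0.28 (0.04 to 0.52) and that of Rpia turned to 0.08 (-0.21 to 0.37).

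Tkt and Taldo1 encode transketolase and transaldolase, which move carbon units between sugar phosphates and link the pathway to glycolysis. They went apart. Tkt (chromosome 14, 30548359 to 30574720, ENSMUSG00000021957) had 3079 UMIs (209 CPM, 202 to 217) in control and 3596 UMIs (183 CPM, 177 to 189) in TGR. Its log2 ratio was -0.20 (-0.27 to -0.13) on total UMIs but turned to 0.06 without ribosomal protein and mitochondrial genes in the totals. On that scale the median of all genes tested was 0.17, so Tkt still lay below it. Taldo1 (chromosome 7, 141392199 to 141402968, ENSMUSG00000025503) had 1337 UMIs (90.8 CPM, 86.0 to 95.8) and 1058 UMIs (53.7 CPM, 50.5 to 57.0), 1.69-fold lower (1.56 to 1.83). Taldo1 thus went from 27.5% (26.3 to 28.8) to 20.3% (19.2 to 21.4) of non-oxidative UMIs, while Tkt went from 63.4% (62.0 to 64.7) to 68.9% (67.6 to 70.1). These shares do not depend on the scaling of the libraries.

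Prps1 and Prps2 encode isozymes of PRPP synthetase, and the ratios of their transcripts also differed in size. Prps1 (chromosome X, 140456613 to 140476140, ENSMUSG00000031432) had 534 UMIs (36.3 CPM, 33.2 to 39.5) in control and 343 UMIs (17.4 CPM, 15.6 to 19.4) in TGR, 2.08-fold lower (1.81 to 2.39). Prps2 (chromosome X, 167346322 to 167382749 on the minus strand, ENSMUSG00000025742) had 525 UMIs (35.6 CPM, 32.7 to 38.8) and 575 UMIs (29.2 CPM, 26.9 to 31.7), 1.22-fold lower (1.08 to 1.38). Its log2 ratio was -0.03 (-0.20 to 0.15) without ribosomal protein and mitochondrial genes in the totals, where the median of all genes tested was 0.17. Prps1 made up 50.4% (47.4 to 53.5) of the pair's UMIs in control and 37.4% (34.2 to 40.6) in TGR. The balance of the pair therefore differed between the libraries on any scaling. Reads of Prps1 could be shared with its copy Prps1l3, which had 36 and 39 UMIs, so the split of these counts is uncertain.

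The start regions of Pgd, Taldo1 and Prps1, the 3 genes counted as lower, are shown with that of G6pdx, the entry enzyme. Each runs from 250 bases before to 50 after a RefSeq transcript start (GRCm38.p6), read 5′ to 3′ on the gene's strand. All 9 genes have such an entry, and Pgd has 2. Capitals mark the CCAAT box (CCAAT), the core of the antioxidant response element (TGACNNNGC, the element bound by NRF2) and the E-box (CACGTG), each searched on both strands, where no marked stretch overlaps another. CCAAT was added to the search after the sequences were seen.
Pgd, chr4:149166656-149166955, minus strand: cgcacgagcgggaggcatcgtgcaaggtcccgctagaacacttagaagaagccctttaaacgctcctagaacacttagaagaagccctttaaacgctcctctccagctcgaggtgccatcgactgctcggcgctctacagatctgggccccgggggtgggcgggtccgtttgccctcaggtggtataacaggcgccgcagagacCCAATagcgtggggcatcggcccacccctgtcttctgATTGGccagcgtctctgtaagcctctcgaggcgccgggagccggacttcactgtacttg
Taldo1, chr7:141391910-141392209, plus strand: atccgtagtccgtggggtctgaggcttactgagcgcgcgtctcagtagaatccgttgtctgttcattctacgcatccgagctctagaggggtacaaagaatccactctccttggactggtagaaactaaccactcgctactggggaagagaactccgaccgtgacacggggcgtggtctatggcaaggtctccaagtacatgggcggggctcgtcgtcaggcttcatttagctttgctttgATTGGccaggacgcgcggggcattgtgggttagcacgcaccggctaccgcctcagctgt
Prps1, chrX:140456353-140456652, plus strand: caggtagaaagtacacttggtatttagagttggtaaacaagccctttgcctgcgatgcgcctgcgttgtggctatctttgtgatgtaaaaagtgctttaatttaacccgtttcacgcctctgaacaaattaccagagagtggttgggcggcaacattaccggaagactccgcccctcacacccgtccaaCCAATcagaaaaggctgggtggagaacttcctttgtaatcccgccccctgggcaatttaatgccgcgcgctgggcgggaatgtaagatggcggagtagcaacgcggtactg
G6pdx, chrX:74428831-74429130, minus strand: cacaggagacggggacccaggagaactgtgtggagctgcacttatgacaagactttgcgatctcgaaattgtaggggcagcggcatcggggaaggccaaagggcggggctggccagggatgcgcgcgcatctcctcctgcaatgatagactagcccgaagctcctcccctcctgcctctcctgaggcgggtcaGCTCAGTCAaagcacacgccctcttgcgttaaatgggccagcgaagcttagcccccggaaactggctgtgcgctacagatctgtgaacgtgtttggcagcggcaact
Pgd carries CCAAT starting 46 bases before the start and its reverse complement 9 bases before it. Taldo1 carries the reverse complement 9 bases before the start and Prps1 carries CCAAT 61 bases before it. Among the 9 genes 4 hold CCAAT (Rpe is the other, with the match after its start), while 37.4% of 32851 windows of this length hold it. G6pdx carries the antioxidant core 57 bases before its start. The other Pgd window, not shown, holds it after the start rather than before it. Of all windows 12.4% hold this core. The E-box was found in 0 of the 9 genes and in 7.15% of all windows. These matches describe letters only.

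The question of cell cycle state was addressed by calling each cell G1, S or G2/M from lists of S and G2/M genes after thinning it to 1500 UMIs, which left out 91 control cells as too shallow. None of the 9 genes is in those lists, and G1 here means that neither list stood above its background. Control cells fell into 169 G1, 1044 S and 1823 G2/M cells, and TGR cells into 1117, 855 and 574. The G1 state held 5.57% of control cells (4.78 to 6.44) and 43.9% of TGR cells (41.9 to 45.8). Values for control G1 rest on 590544 UMIs and are the least precise of all, and a cell's phase call is relative to both libraries.

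**Figure D2:**
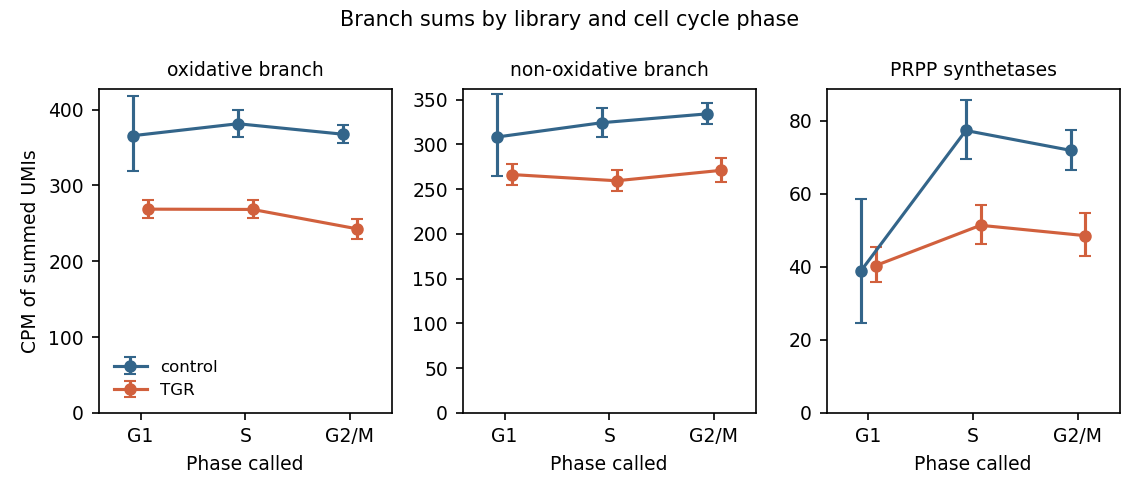
Summed level of each branch in CPM by phase called, for the control and TGR libraries, with exact Poisson 95% intervals (lines join the phases of 1 library). The oxidative and non-oxidative sums are nearly level across phases within a library, whereas the PRPP synthetases stand higher in S and G2/M than in G1.

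The oxidative branch was lower in TGR in each phase as called here, and its levels in the phases of a library lay close together. Its levels were, from high to low, 382 CPM in control S (364 to 399), 368 in control G2/M (355 to 380), 366 in control G1 (319 to 418), 269 in TGR G1 (257 to 281), 268 in TGR S (257 to 281) and 243 in TGR G2/M (230 to 256). Neighbours in this order overlap within counting error, except control G1 with TGR G1 and TGR S with TGR G2/M, whose ratio left out equality (G2/M over S -0.14, -0.25 to -0.04). TGR was 1.36-fold lower in G1 (1.18 to 1.57), 1.42-fold lower in S (1.33 to 1.52) and 1.51-fold lower in G2/M (1.42 to 1.61). With phases called after thinning to 2500 UMIs, which left 49 control cells in G1, the log2 ratio within G1 was -0.12 (-0.49 to 0.28), so the G1 difference depends on the call. With that call control S over G1 was 0.42 (0.05 to 0.82), which leaves out equality, against 0.06 (-0.14 to 0.27) with the call used here. With the 3 phases given equal weight, so that both libraries have the same mix, the log2 ratio was -0.52 (-0.60 to -0.44), against -0.51 without weighting.

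The non-oxidative branch also differed little between phases. Control stood at 308 CPM in G1 (265 to 356), 324 in S (308 to 341) and 334 in G2/M (322 to 346), and TGR at 266 (254 to 279), 259 (248 to 271) and 271 (257 to 285). Each of the 4 ratios of S or G2/M over G1, 2 in each library, had an interval that included equality and left out a 1.3-fold difference. On the log2 scale TGR over control gave -0.32 in S (-0.42 to -0.22) and -0.30 in G2/M (-0.39 to -0.21), while in G1 it was -0.21 (-0.43 to 0.02), which includes equality. The equally weighted ratio was -0.28 (-0.36 to -0.20).

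The PRPP synthetases stood higher in S and G2/M than in G1 in both libraries, with intervals that depend on the phase call. In control they stood at 38.9 CPM in G1 (24.7 to 58.4), 77.3 in S (69.6 to 85.6) and 71.9 in G2/M (66.5 to 77.6), with log2 ratios over G1 of 0.99 (0.38 to 1.66) and 0.88 (0.29 to 1.55). In TGR they stood at 40.3 (35.8 to 45.3), 51.4 (46.2 to 56.9) and 48.5 CPM (42.9 to 54.7), with log2 ratios of 0.35 (0.12 to 0.58) and 0.27 (0.02 to 0.51). With phases called after thinning to 2500 UMIs the control ratios were 0.67 (-0.22 to 1.74) and 0.56 (-0.33 to 1.63), which include equality. The TGR ratio of G2/M over G1 also included equality without ribosomal protein and mitochondrial genes in the totals (0.23, -0.02 to 0.48) and without the 5% of cells with the most UMIs (0.19, -0.08 to 0.45). The intervals of these ratios overlap between the libraries, and their difference was not tested. TGR was 1.51-fold lower in S (1.30 to 1.75) and 1.48-fold lower in G2/M (1.28 to 1.71), while in G1 the levels were 38.9 and 40.3 CPM. The equally weighted ratio was -0.42 (-0.60 to -0.25), closer to 0 than the unweighted -0.62. For single genes equal weights gave -0.99 (-1.21 to -0.78) for Pgd, -0.78 (-0.94 to -0.61) for Taldo1, -0.85 (-1.09 to -0.60) for Prps1 and -0.06 (-0.38 to 0.27) for G6pdx.

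**Figure D3:**
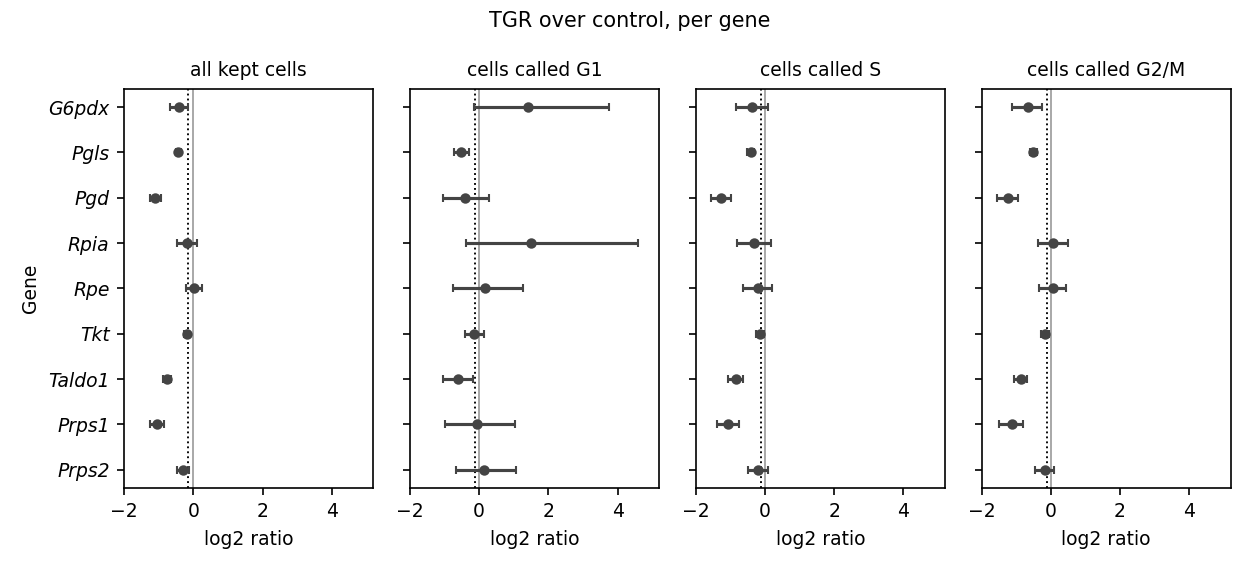
Log2 ratio of TGR over control for each gene in all kept cells and in cells called G1, S and G2/M, with exact 95% counting intervals; the solid line marks equality and the dotted line the median of all genes tested in that panel's cells. Pgd, Taldo1 and Prps1 lie left of the dotted line in S and G2/M, and the G1 intervals are wide.

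Gene by gene, the within-phase comparisons repeated the unevenness in S and G2/M. In S, 3 of 9 were lower (Pgd, Taldo1 and Prps1) and 0 higher, against 20.5% lower and 11.2% higher of all genes tested. In G2/M, 4 of 9 were lower (these 3 and G6pdx) and 0 higher, against 22.5% lower and 12.1% higher. In G1 Rpia fell short of 10 CPM, and of the other 8 only Taldo1 was lower and 0 were higher, against 14.3% lower and 5.12% higher.

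Pgd stood at 37.3 CPM in control G1 (22 UMIs), 56.5 in S and 51.7 in G2/M, and at 27.9, 23.4 and 21.8 CPM in TGR. It was thus 2.41-fold lower in S (1.98 to 2.94) and 2.36-fold lower in G2/M (1.94 to 2.92), and in G1 the log2 ratio was -0.42 (-1.06 to 0.29). Within TGR its G2/M over G1 ratio was -0.35 (-0.69 to -0.02), and in control the same ratio was 0.47 (-0.14 to 1.16). The difference between these 2 ratios was not tested.

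Taldo1 was lower in every phase. It stood at 93.1, 90.3 and 91.0 CPM in control G1, S and G2/M and at 60.4, 50.1 and 49.8 CPM in TGR. The gap was 1.54-fold in G1 (1.14 to 2.04), 1.80-fold in S (1.56 to 2.08) and 1.83-fold in G2/M (1.59 to 2.10). In control its phase ratios lay between -0.04 and 0.01, with intervals that include equality, and in TGR it was lower in S than in G1 (-0.27, -0.48 to -0.07).

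Prps1 stood at 16.9 CPM in control G1 (10 UMIs), 41.0 in S and 35.5 in G2/M, and at 16.1, 19.6 and 16.2 CPM in TGR. In control it was higher in S than in G1 (log2 ratio 1.27, 0.36 to 2.36), and in TGR the same ratio was 0.28 (-0.08 to 0.65). Prps2 stood at 22.0, 36.3 and 36.4 CPM in control and at 24.2, 31.7 and 32.3 CPM in TGR. Within TGR, Prps2 was higher in S (0.39, 0.10 to 0.68) and in G2/M (0.42, 0.11 to 0.73) than in G1. The pair's balance was thus 53.0% Prps1 in control S (47.7 to 58.2) against 38.3% in TGR S (33.3 to 43.4), and 49.3% (45.5 to 53.2) against 33.3% (27.7 to 39.3) in G2/M.

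**Figure D4:**
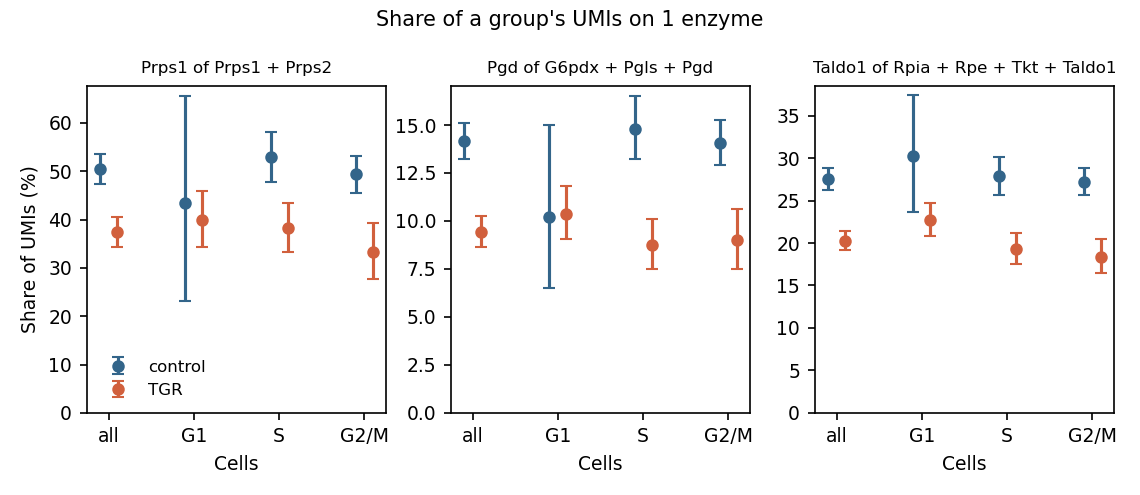
Share of UMIs on Prps1 within the PRPP synthetase pair, on Pgd within the oxidative branch and on Taldo1 within the non-oxidative branch, in percent with exact binomial 95% intervals, for all kept cells and by phase in each library. The TGR points lie below control in S and G2/M in all 3 panels, and in G1 the intervals overlap in all 3.

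G6pdx had only 3 UMIs in control G1 (5.08 CPM, 1.05 to 14.8) and stood at 15.3 and 18.2 CPM in control S and G2/M. In TGR it stood at 13.9, 11.8 and 11.4 CPM. Its ratio of G2/M over G1 in control was 1.82 on the log2 scale (0.27 to 4.13) and -0.28 (-0.76 to 0.19) in TGR. Rpia had 2 UMIs in control G1, and its ratio of G2/M over G1 was 1.89 (0.04 to 4.99), while in TGR it was 0.46 (-0.03 to 0.96). These control G1 values rest on too few UMIs to set a size.

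Between phases of the control library, 2 of 9 were higher in S than in G1 (Rpia and Prps1) against 7.27% of all genes tested, and 3 of 9 were higher in G2/M than in G1 (G6pdx, Rpia and Prps1) against 8.04%. The lower counts were 0 in both, against 4.49% and 3.53%. G6pdx, Rpia and Prps1 had 3, 2 and 10 UMIs in control G1, so their calls as higher rest on few UMIs. G6pdx and Rpia, at 5.08 and 3.39 CPM in control G1, passed the minimum of 10 CPM only through the phase where they were higher. These counts therefore do not mark the pathway as higher in S or G2/M. In the TGR library 0 of 9 were higher or lower at 1.5-fold, against 8.48% higher and 1.35% lower for S over G1 and 11.4% higher and 3.87% lower for G2/M over G1. For G2/M over S, 0 of 9 were higher or lower in either library, against 2.77% higher and 0.805% lower of all genes in control and 2.15% and 1.84% in TGR. Tkt, Pgls, Rpe, Pgd, Taldo1 and Prps2 had intervals that included equality for both ratios over G1 in control.

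A finer ordering used the share of a cell's thinned UMIs on the S and G2/M lists, with cells of both libraries divided at the quartiles into 4 bins. The lowest bin held 118 control and 1256 TGR cells and the highest 1358 and 234. The oxidative branch was lower in TGR in all 4 bins, with log2 ratios of -0.40, -0.57, -0.51 and -0.58 from the lowest bin up. The non-oxidative branch gave -0.25, -0.33, -0.19 and -0.27 and the PRPP synthetases -0.48, -0.35, -0.55 and -0.45, where in the lowest bin neither interval left out equality. Taldo1 was lower in all 4 bins, from -0.71 to -0.91. Pgd was 1.28 to 1.37 lower on the log2 scale in the upper 3 bins, while the lowest bin held only 6 of its UMIs from control cells against 227 from TGR cells, with a log2 ratio of 0.70 (-0.44 to 2.16).

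**Figure D5:**
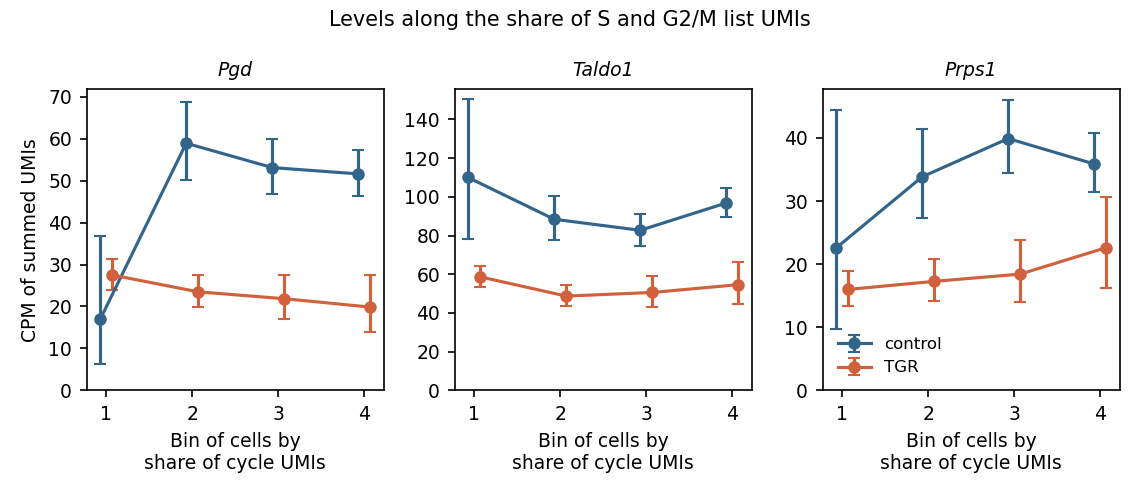
Levels of Pgd, Taldo1 and Prps1 in CPM of summed UMIs in 4 bins of cells ordered by their share of UMIs on S and G2/M list genes (bin 1 lowest), with exact Poisson 95% intervals. Control lies above TGR in bins 2 to 4 for all 3 genes, and in bin 1 the intervals of Pgd and of Prps1 overlap.

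Depth per cell differed between the libraries, and 3 bands of UMIs per cell were therefore compared. The oxidative log2 ratio was -0.44, -0.51 and -0.52 from the shallowest to the deepest cells. That of the non-oxidative branch was -0.41, -0.36 and -0.23, and that of the PRPP synthetases -0.30 (-0.70 to 0.08), -0.56 and -0.78. Tkt went from -0.49 (-0.72 to -0.26) through -0.30 to -0.11 (-0.21 to -0.01), so its small difference was larger in shallow cells. Prps1 went the other way, from -0.53 (-1.19 to 0.07) through -1.03 to -1.26. For G6pdx the ratio was 0.47 (-0.36 to 1.26) in the shallowest cells, on 47 control and 20 TGR UMIs, and -0.85 and -0.61 in the deeper bands. The part of depth in these ratios was not tested.

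Counted as UMIs per cell rather than as a share, the pathway was not lower. The mean was 3.64 UMIs of the 9 genes per kept control cell and 4.43 per kept TGR cell, with 1.75 and 2.02 for the oxidative branch and 1.55 and 2.05 for the non-oxidative branch. Pgd and Prps1 stood lower in TGR by this count too, at 0.248 and 0.190 and at 0.171 and 0.135 UMIs per cell, and Taldo1 was nearly level at 0.428 and 0.416. Whether TGR cells had more RNA or were captured or sequenced more deeply cannot be told apart. After thinning to 1500 UMIs, a UMI of at least 1 of the 9 genes was seen in 68.6% of 3036 control cells (66.9 to 70.3) and 58.0% of 2546 TGR cells (56.0 to 59.9). The unthinned shares were 91.9% and 95.4%, in reverse order. These enzymes are made by nearly all cell types, so no type that lacks them was at hand to give a background.

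Across 18 groups of cells (each library and phase divided into 3 by UMIs per cell), the genes most like each branch were sought among 3566 genes with a mean of at least 25 CPM. Likeness was Pearson's r of log2 CPM, given as a description because the groups share libraries and depth. The oxidative sum was most like Cox7b (r = 0.98), Atp5l (0.97) and Chchd2 (0.97), the first 2 of them subunits of the respiratory chain and ATP synthase. Cox7b stood at 567 and 295 CPM in control and TGR. The non-oxidative sum was most like Dnajc15 (0.89), Ebp (0.88) and Rer1 (0.88). The PRPP synthetases were most like Supt16 (0.84), Dnaaf2 (0.83) and Slc38a1 (0.83), and Supt16, a histone chaperone subunit, stood at 75.2 and 31.5 CPM. Among the members themselves r ran from -0.42 (Pgls with Rpia) to 0.91 (Pgls with Taldo1).

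Genes around the pathway were read by lists and the same 1.5-fold rule, and each count over all kept cells stands against 9.33% higher and 21.8% lower among all genes tested (5.12% and 14.3% within G1). Of the paralogs and side enzymes, 5 of 14 reached 10 CPM and 0 were higher or lower, with a median log2 ratio of -0.19. Among them Prpsap1, a regulatory partner of PRPP synthetase, stood at 40.3 and 29.7 CPM and Dera, which cleaves deoxyribose phosphate, at 41.8 and 31.9 CPM. Prpsap2 stood at 9.16 and 11.4 CPM and Pgm2 at 26.7 and 26.8 CPM. Idnk stood at 72.6 and 63.6 CPM. The others had between 0 and 124 UMIs in a library, and the transketolase-like genes Tktl1 and Tktl2 had 0 in both. One of these, Rbks, was too low to be counted but had 85 UMIs in control and 42 in TGR. Its log2 ratio was -1.42 (-2.01 to -0.89), while the intervals of the rest below 10 CPM included equality.

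At the entry, 1 of 5 measured genes was higher (Gpi1) and 1 lower (Pfkl), the latter near the 21.8% of all genes. Gpi1, which draws glucose 6-phosphate into glycolysis, was 1.80-fold higher in TGR (641 CPM against 356), opposite in direction to the oxidative enzymes. Pfkl stood at 44.2 and 24.4 CPM, Hk1 at 44.0 and 29.3 and Pfkp at 68.3 and 76.4 CPM. Glycolysis genes had 4 of 13 higher (Gpi1, Aldoa, Aldoc and Pgk1) and 4 lower (Pfkl, Tpi1, Pgam1 and Ldha) with a median of 0.23, against 9.33% higher and 21.8% lower of all genes. Within G1, 5 of 13 were higher (the same 4 and Eno1) and 0 lower. Aldoa stood at 767 and 1834 CPM and Pgk1 at 22.1 and 58.4 CPM, against 375 and 176 CPM for Pgam1 and 1625 and 857 CPM for Ldha.

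A list around other NADPH sources also held NAD kinase genes and folate enzymes, not all of which make NADPH. Of its 4 measured genes 0 were higher and 1 was lower (Mthfd1, 20.1 and 8.58 CPM), near the 21.8% of all genes. Within G1 and within S, 1 of 4 was higher (Mthfd1l) and 1 lower (Mthfd1). Of all genes tested 5.12% were higher and 14.3% lower in G1, and 11.2% and 20.5% in S. Mthfd1l stood at 26.1 and 38.7 CPM, Nadk, which makes NADP, at 44.0 and 38.3 and Idh2 at 18.2 and 14.5 CPM. Among genes whose products use NADPH, Blvrb, biliverdin reductase B, stood at 12.4 and 19.4 CPM in control and TGR. Fasn, fatty acid synthase, stood at 83.1 and 25.1 CPM and Sqle, squalene epoxidase, at 32.4 and 11.4 CPM. Gsr, glutathione reductase, stood at 29.3 and 26.2 CPM.

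Downstream of Prps1, 4 of 5 measured genes whose enzymes use PRPP were lower (Ppat, Umps, Hprt and Aprt) and 0 higher, with a median of -0.79, against 21.8% lower and 9.33% higher of all genes. Within G1, 2 of 5 were lower, with a median of -0.78. Ppat, which opens purine synthesis, stood at 25.7 and 12.6 CPM and Umps, which makes UMP, at 35.6 and 17.0 CPM. Aprt, of adenine salvage, stood at 259 and 153 CPM, and Nampt, of NAD salvage, had a log2 ratio of 0.16. Purine synthesis genes had 6 of 10 lower and 0 higher (median -0.81) against the same 21.8% and 9.33%, and 2 of 10 lower within G1 (median -0.35), with Gart at 43.9 and 19.9 CPM and Pfas at 28.9 and 11.9 CPM, whereas Paics stood at 90.6 and 94.5 CPM and Adss at 71.4 and 74.3 CPM. A list of ribonucleotide reductase and nucleotide kinase genes also held Tyms, thymidylate synthase. It had 5 of 6 lower (Nme1, Rrm1, Rrm2, Tyms and Tk1) and 0 higher (median -1.01), against 21.8% and 9.33% of all genes. Within phases 6 of 6 were lower in G1, 5 of 6 in S and 1 of 6 (Nme1) in G2/M, where the median was -0.42 and 22.5% of all genes were lower. G1 held 5.57% of control and 43.9% of TGR cells. Nme1 stood at 736 and 177 CPM, Rrm2 at 146 and 72.3, Tk1 at 75.3 and 39.6 and Dck at 47.0 and 36.0 CPM. Rrm1, Rrm2 and Tyms of that list also served the phase calls.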

How the data were processed

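The authors deposited, per the file headers, matrices of raw counts of UMIs, whole numbers for each gene in each barcode. The submitters' processing notes name Cell Ranger 2.2, Seurat 3 and mm10 with no roles, and how barcodes were filtered is not given in the sources used here. From these counts, UMIs of kept cells were summed per library, phase or bin and scaled to CPM. Log2 ratios had 0.5 UMI added per library, scaled by size, with exact Clopper-Pearson intervals of the split of UMIs. CPM has exact Poisson intervals and shares exact binomial ones, all at 95%. Equally weighted ratios have delta-method intervals. Phases were called with scanpy 1.11.5 on both libraries together. No doublet caller was run, and doublets were left in. Gene positions are from GENCODE M21 (GRCm38).

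Members and lists were chosen with earlier results of these data known. All 9 members are named, with the 2 highest and 2 lowest measured genes of each other list and the 3 genes most like each branch. The count over genes that use NADPH is not reported here. The ratio code was tested on simulated data. Alternatives were TMM factors (edgeR 4.0.16), size factors of DESeq2 1.42.0, totals from which 84 ribosomal protein and 13 mitochondrial genes were left out, other cell filters, thinning, other phase calls, minimums and folds.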

Additional observations from a re-analysis of the deposited data

Results flagged for a closer look

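Control barcodes above the mitochondrial limit were left out of every comparison above, and entered only the recomputed values with no mitochondrial limit. These 209 barcodes (median 1545 UMIs) held 309 UMIs of the 9 genes, 827 CPM (737 to 924), where a count of 0 would allow up to 8.03 CPM, against 773 CPM in kept control cells. Tkt stood at 423 CPM there (359 to 494) against 209 CPM in kept cells, and Pgls at 128 CPM (94.7 to 170) against 302 CPM. The non-oxidative sum was 565 CPM there against 330 CPM in kept control cells, and the oxidative sum 198 CPM against 372 CPM. The values were not tested.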

How the results depend on the processing

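Of 301 recomputed values of 38 results, 276 stayed within the counting interval (or, for counts of genes, within 1.5 times) of the reported value. With totals that leave out ribosomal protein and mitochondrial genes, Tkt turned from -0.20 to 0.064, where the median of all genes tested was 0.17. Single genes that moved with these totals were Pgls (-0.17), Pgd (-0.84), Rpe (0.28), Taldo1 (-0.50), Prps1 (-0.80) and Prps2 (-0.03). The TGR over control ratios of the oxidative, non-oxidative and PRPP groups moved to -0.25, -0.056 and -0.37 over all cells, to -0.26, -0.072 and -0.34 within S, to -0.35, -0.052 and -0.32 within G2/M and to -0.29, -0.052 and -0.19 with phases weighted equally. With phases called after thinning to 2500 UMIs, which left 49 control G1 cells, the oxidative ratio within G1 was -0.12 (-0.49 to 0.28) and with equal weights -0.41, and in control the oxidative ratio was 0.42 for S over G1 and 0.35 for G2/M over G1. At the lower of the other fold limits tried, 5 of 9 genes were lower in place of 3. TMM factors shift every ratio by 0.04 and DESeq2 size factors by 0.02. No paired analysis was possible because each condition has 1 library, and for the same reason none could be left out. Genes with few UMIs in control G1 (G6pdx, Rpia, Rpe, Prps1, Prps2 and Pgd) are limited by depth.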
